A study of Mus musculus with 6 samples.

Results

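Interferon-stimulated genes are the genes that cells switch on when an interferon reaches its receptor. A set of 51 mouse genes of this kind was followed in cultured satellite cells, from which skeletal muscle regenerates. The cells had received MG53 protein of human sequence made as a recombinant (rhMG53), or, as vehicle control, bovine serum albumin (BSA). The genes were taken from the deposited table by their symbols, and all 51 were found among its 27179 rows. Of these, 44 had enough counts to be tested, among 13769 tested genes in all. The rhMG53 and BSA groups each held 3 libraries of wild-type C57BL/6 cells, isolated from hindlimb muscle, grown in DMEM with fetal bovine serum and bFGF, and exposed to the protein for 72 h (all 6 carry the batch label day 3). The labels call the cells of both groups ageing, but give no age, sex or number of animals. MG53, the product of Trim72 in the mouse, belongs to the TRIM proteins and is known for resealing the membrane of injured muscle fibres. The design implies 1 comparison, rhMG53 against BSA, which asks which transcripts the added protein changes.

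Type I interferons bind a receptor made of the Ifnar1 and Ifnar2 products, the kinases Jak1 and Tyk2 then phosphorylate STAT proteins, and a complex of these with Irf9 enters the nucleus and binds short DNA elements built of paired GAAA. Interferon gamma acts through its own receptor and a shorter element of the TTCNNNGAA kind. The genes so induced block virus replication, display peptides on MHC class I molecules and in part feed back on the pathway. In muscle cells they are known for their induction by infection, by inflammation and in some inherited and autoimmune muscle diseases.

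Promoter sequences of 6 members are shown because they carry the element that many of these genes share. They come from RefSeq (GRCm38.p6, the assembly of mm10) and run from 250 bases before to 50 bases after an annotated start, 5′ to 3′ on the strand of the gene. Capitals mark each match to the element, searched as GAAA, 2 bases of any kind and GAAA, or the same read on the other strand (TTTC, 2 bases, TTTC). The windows are chr19:34640639-34640938 (+) for Ifit1, chr19:34583279-34583578 (+) for Ifit3, chr19:34607707-34608006 (+) for Ifit3b, chr4:156200769-156201068 (-) for Isg15, chr3:142620413-142620712 (+) for Gbp2 and chr2:122147437-122147736 (+) for B2m.
Ifit1: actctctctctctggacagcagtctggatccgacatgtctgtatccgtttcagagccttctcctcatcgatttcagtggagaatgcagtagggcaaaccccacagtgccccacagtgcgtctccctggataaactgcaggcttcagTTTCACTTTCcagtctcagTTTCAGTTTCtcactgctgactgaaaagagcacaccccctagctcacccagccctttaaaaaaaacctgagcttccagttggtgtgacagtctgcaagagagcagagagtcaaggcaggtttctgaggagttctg
Ifit3: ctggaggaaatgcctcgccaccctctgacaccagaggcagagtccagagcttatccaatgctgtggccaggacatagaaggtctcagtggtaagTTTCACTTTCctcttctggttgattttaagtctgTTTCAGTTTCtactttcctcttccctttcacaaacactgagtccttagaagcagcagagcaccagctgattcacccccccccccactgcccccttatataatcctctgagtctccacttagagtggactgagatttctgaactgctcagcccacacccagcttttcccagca
Ifit3b: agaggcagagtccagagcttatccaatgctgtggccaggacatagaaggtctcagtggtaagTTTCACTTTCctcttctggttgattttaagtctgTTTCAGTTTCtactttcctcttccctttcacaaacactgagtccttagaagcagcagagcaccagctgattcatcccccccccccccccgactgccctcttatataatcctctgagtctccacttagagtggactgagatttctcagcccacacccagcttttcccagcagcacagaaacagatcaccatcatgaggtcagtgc
Isg15: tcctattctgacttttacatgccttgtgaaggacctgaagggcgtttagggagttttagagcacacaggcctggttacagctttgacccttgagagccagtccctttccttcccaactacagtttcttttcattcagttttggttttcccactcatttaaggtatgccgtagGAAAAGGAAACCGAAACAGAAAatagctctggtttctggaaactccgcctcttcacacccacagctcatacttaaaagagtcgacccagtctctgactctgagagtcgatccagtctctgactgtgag
Gbp2: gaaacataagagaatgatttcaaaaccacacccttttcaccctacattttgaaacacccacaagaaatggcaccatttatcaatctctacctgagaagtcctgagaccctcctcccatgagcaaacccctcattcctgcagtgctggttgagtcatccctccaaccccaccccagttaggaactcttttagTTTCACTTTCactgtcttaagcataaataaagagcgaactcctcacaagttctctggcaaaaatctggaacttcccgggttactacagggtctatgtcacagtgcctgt
B2m: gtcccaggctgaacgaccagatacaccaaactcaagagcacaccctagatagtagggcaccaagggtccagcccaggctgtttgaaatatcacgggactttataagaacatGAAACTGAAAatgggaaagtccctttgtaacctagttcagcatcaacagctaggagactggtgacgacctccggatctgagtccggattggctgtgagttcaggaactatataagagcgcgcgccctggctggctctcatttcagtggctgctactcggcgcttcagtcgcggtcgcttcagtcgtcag

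Ifit1, Ifit3 and Ifit3b, which encode related antiviral RNA-binding proteins, each held the same pair of matches, TTTCACTTTC followed by TTTCAGTTTC. The first match began 104 bases before the start in Ifit1, 156 in Ifit3 and 188 in Ifit3b. In Ifit3 and Ifit3b the start used is not the outermost start of the gene. That lies upstream of the window, at 34583119 and 34607530, so these matches fall inside the annotated gene. The windows of Ifit3 and Ifit3b aligned with 259 identical bases over 340 columns (76.2%). Each window is 300 bases long and the windows are offset, so these columns include unpaired ends. The bases that did pair were therefore more alike than 76.2%. In Isg15, the gene of a ubiquitin-like modifier, 3 overlapping matches formed a single run. Gbp2, a guanylate-binding GTPase gene, had its match 59 bases before the start, and B2m, the gene of the MHC class I light chain, had one 139 bases before. The RefSeq promoter table used here matched 37 of the 51 members, of which 19 (51.4%) had at least 1 match on either strand, against 3.99% of 27025 genes with a promoter in the table. TTCNNNGAA was found in 8 of the 37 (21.6%), against 9.55% of all genes, and the 2 kinds of match overlapped in 1 member. The 17 tested members with a match to the paired GAAA element had a median log2 fold change of 0.41 and 14 positive values, and the 17 tested members without a match had a median of 0.20 and 12 positive values. The range of log2 fold changes was -0.11 to 0.91 in the first set and -0.33 to 1.13 in the second, so they overlapped widely. A match describes these letters only, and a gene without one may carry the element elsewhere.

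The libraries held 17374151 to 22738745 gene counts. Which animal or culture each library came from is not labelled, so the p-values reflect only how the libraries vary, which may be technical. Myogenic markers summed to 46769, 44765 and 50331 CPM (counts scaled to the TMM-adjusted library size) in rhMG53 replicates 1 to 3 and to 47130, 50120 and 49596 CPM in the BSA replicates. The largest parts of these sums were Myh3, a muscle myosin gene, at a mean of 21460 CPM, and Acta1, a muscle actin gene, at 12468 CPM. Myog, a differentiation factor, averaged 910.1 CPM and Pax7, the defining factor of satellite cells, 9.24 CPM. The 12 leukocyte markers summed to 8.23, 11.7 and 7.48 CPM in rhMG53 replicates 1 to 3 and to 8.22, 7.12 and 7.86 CPM in BSA replicates 1 to 3. Among these, Ms4a1, Nkg7 and Siglech were at 0 in every library. Endothelial markers summed to 5.45 to 6.92 CPM with rhMG53 and 6.93 to 7.43 CPM with BSA, and fibroblast markers to 534.5 to 595.9 CPM with rhMG53 and 513.4 to 595.8 CPM with BSA, with 0 of 8 markers of either list at 0 throughout. In bulk RNA, fewer cells that express a gene and less RNA of it per cell cannot be told apart.

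Interferon-stimulated genes stood at low levels in both groups. Of the 51, 8 averaged above 10 CPM and 33 were under 5 CPM. Per kilobase of exon, B2m was the highest by far, at a mean of 129.5 CPM per kilobase and 122.7 to 135.7 over the 6 libraries. Tor3a, the gene of an endoplasmic reticulum ATPase of the torsin family, followed at 16.9 (15.3 to 18.7), and its range overlapped that of Ifi27, an interferon-inducible gene, at 14.1 (12.2 to 16.9). Bst2, which encodes tetherin, a protein that holds budding viruses at the cell surface, was at 10.8 (9.10 to 13.9) and Tapbp, the gene of the peptide-loading chaperone tapasin, at 9.69 (8.88 to 10.5), and their ranges overlapped. The classical induced genes stood much lower, with Isg15 at 3.02 CPM per kilobase (2.04 to 5.83), Ifit1 at 1.15 (0.538 to 1.94), Rsad2 at 0.385 (0.266 to 0.501) and Cmpk2 at 0.210 (0.132 to 0.320). In all, 31 of 51 members averaged under 1 CPM per kilobase. The oligoadenylate synthetase genes Oas1a, Oas2 and Oas3, whose products make the messenger that activates the antiviral nuclease RNase L, and Mx1 were the 4 lowest, each with 8 to 11 counts over the 6 libraries together. C57BL/6 mice carry a defective Mx1 allele.

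**Figure D1:**
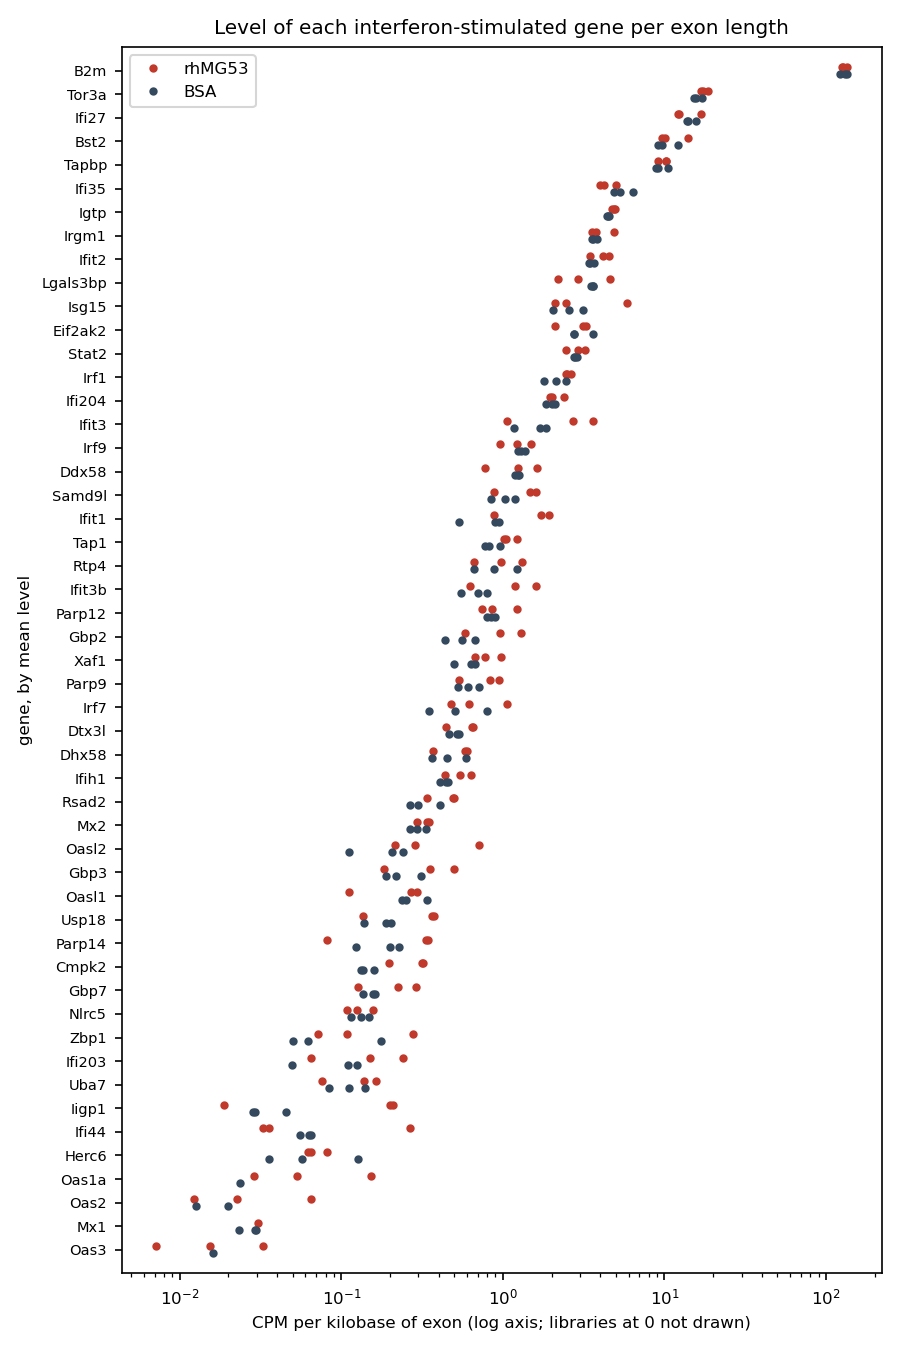
CPM per kilobase of exon (log axis) of each of the 51 genes, 1 point per library, with rhMG53 libraries in red above BSA libraries in dark blue and genes ordered by their mean over the 6 libraries. B2m, at 122.7 to 135.7, lies far above the rest, and most genes lie below 1.

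No member passed the test between rhMG53 and BSA, but most had a positive log2 fold change, and the rhMG53 libraries differed among themselves. Of the 44 tested members, 34 had a positive and 10 a negative log2 fold change, with a median of 0.18, while 50.5% of all 13769 tested genes had a positive one, with a median of 0.00142. With every member fitted, including the 7 that the filter removes, 40 of 51 were positive and the median was 0.25. In edgeR's quasi-likelihood test 0 of 44 members were called at an adjusted p under 0.05, against 0.0218% of all genes called higher and 0% called lower (3 and 0 of 13769). DESeq2 also called 0 members, against 0.0363% of all genes called higher, and limma voom 0, against 0.0218%. The lowest adjusted p of a member was 0.935. At an unadjusted p under 0.05 edgeR had 6 members with a positive value (13.6%), against 2.98% of all genes, and 1 with a negative value (2.27%), against 2.22%, in all 7 of 44 against 5.2%, while over both directions DESeq2 had 6 members, against 2.67% of all genes, and voom 4, against 5.16%. All 3 rhMG53 libraries stood above all 3 BSA libraries in 4 members (9.09%), against 5.94% of all genes, and below them in 0 members, against 4.83%. Of the tested members, 38 reached the filter's cutoff of 0.553 CPM in all 6 libraries, and 2 (Cmpk2 and Herc6) did so in all rhMG53 but not all BSA libraries. A further 2 did so in all BSA but not all rhMG53 libraries, and 2 in all libraries of neither group. The positive values lay mostly among low genes. Of the 26 tested members under 5 CPM, 23 were positive with a median log2 fold change of 0.42, while 47.4% of all tested genes at that level were positive and their median was -0.02. Of the 18 members at 5 CPM or more, 11 were positive with a median of 0.07, against 51.6% of all such genes. The low members together summed to 57.6, 40.7 and 74.7 CPM in rhMG53 replicates 1 to 3, and to 42.4, 47.4 and 38.7 CPM in BSA replicates 1 to 3.

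**Figure D2:**
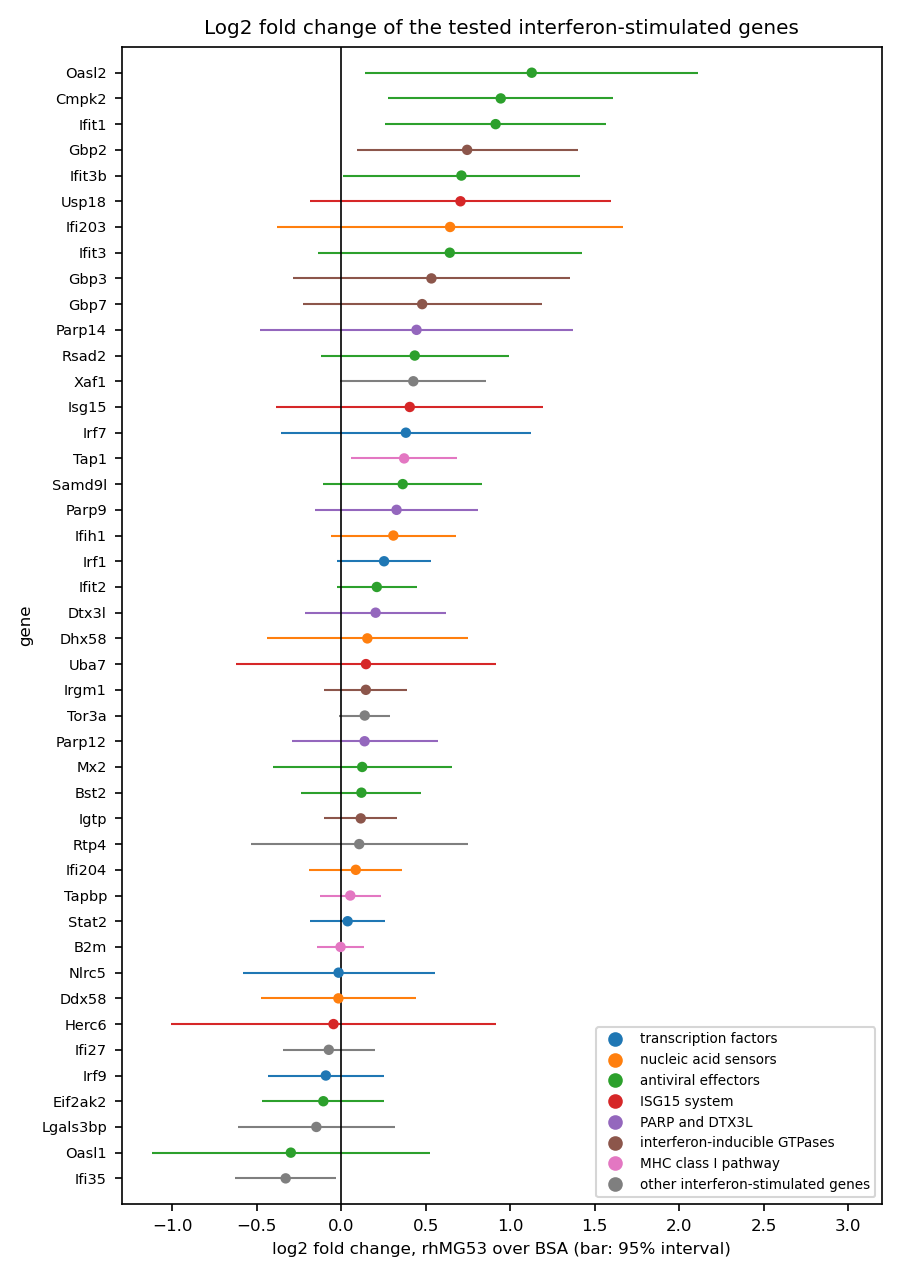
Log2 fold change of rhMG53 over BSA for the 44 tested genes (point) with its 95% interval (bar), coloured by role and ordered by value. In 7 genes the interval does not reach 0, Ifi35 on the negative side and Oasl2, Cmpk2, Ifit1, Gbp2, Ifit3b and Tap1 on the positive side, and none of the 44 passed the test.

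The positive values came with a pattern among the rhMG53 libraries. Replicate 3 of rhMG53 was the highest of the 6 libraries in 30 of 44 tested members (68.2%), against 14.1% of all tested genes. It was above the mean of its gene over all libraries, on the scale log2(CPM + 0.5), in 41 of 44 members, against 52.9% of all genes. It exceeded every BSA library in 37 members (84.1%), against 24.9% of all genes, while rhMG53 replicate 1 did so in 22 (50%), against 25.3%, and rhMG53 replicate 2 in 7 (15.9%), against 29.7%. Relative to the BSA mean, the median member stood at 0.12, -0.09 and 0.39 on that log2 scale in rhMG53 replicates 1 to 3, and the median of all genes was between -0.00328 and 0.00567. Replicate 2 was the lowest of the 3 rhMG53 libraries in 31 of 44 members (70.5%), against 37.0% of all genes. Without rhMG53 replicate 3, 31 of 44 tested members were positive and the median log2 fold change was 0.10. Without rhMG53 replicate 2, 43 of 46 were positive, against 51.8% of all genes in that fit, and the median was 0.32. In that edgeR fit 19 members had an unadjusted p under 0.05, against 5.24% of all genes. When any other library was left out, 5 to 7 members did, against 518 to 846 of all genes. The library left out was the one often lowest of the rhMG53 group in these members, so neither the 43 nor the 19 is support. The lowest adjusted p of a member without rhMG53 replicate 2 was 0.155, for Iigp1. Iigp1 was below the filter with all 6 libraries. It entered that fit only because the rhMG53 library where it was low was left out, so its p is no support. A single gene without a symbol in the tables used here, chosen after its values were seen, took 0.231%, 0.563% and 0.902% of counts in rhMG53 replicates 1 to 3 and 0.264%, 0.327% and 0.226% in BSA replicates 1 to 3, and its part in these values was not tested. The leukocyte marker sum was lowest of the rhMG53 libraries in replicate 3, at 7.48 CPM, of which 5.16 CPM came from Itgam. It was highest in rhMG53 replicate 2, at 11.7 CPM, where Lyz2 alone gave 3.98 CPM, against 0.565 to 0.858 CPM in the other libraries. Whether leukocytes had a part in these values was not tested.

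**Figure D3:**
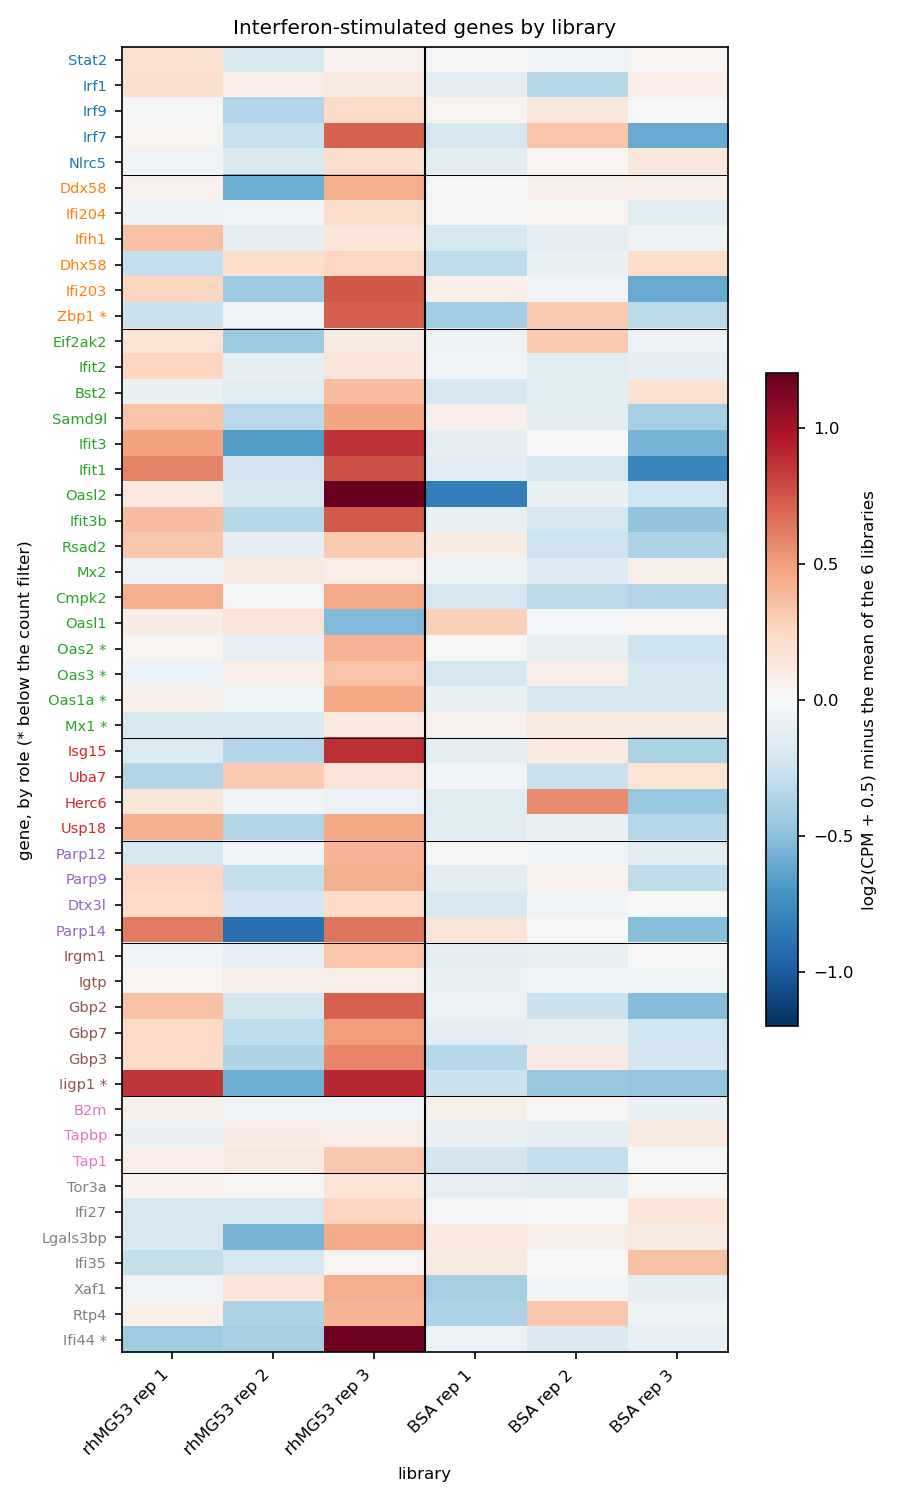
Each of the 51 genes (rows, grouped and coloured by role) in each library (columns, rhMG53 left, BSA right), as log2(CPM + 0.5) minus the mean of the gene over the 6 libraries, with red above and blue below that mean. The rhMG53 replicate 3 column is red for most genes, rhMG53 replicate 1 for a smaller set including Iigp1, Ifit1 and Parp14, and rhMG53 replicate 2 is mostly blue.

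**Figure D4:**
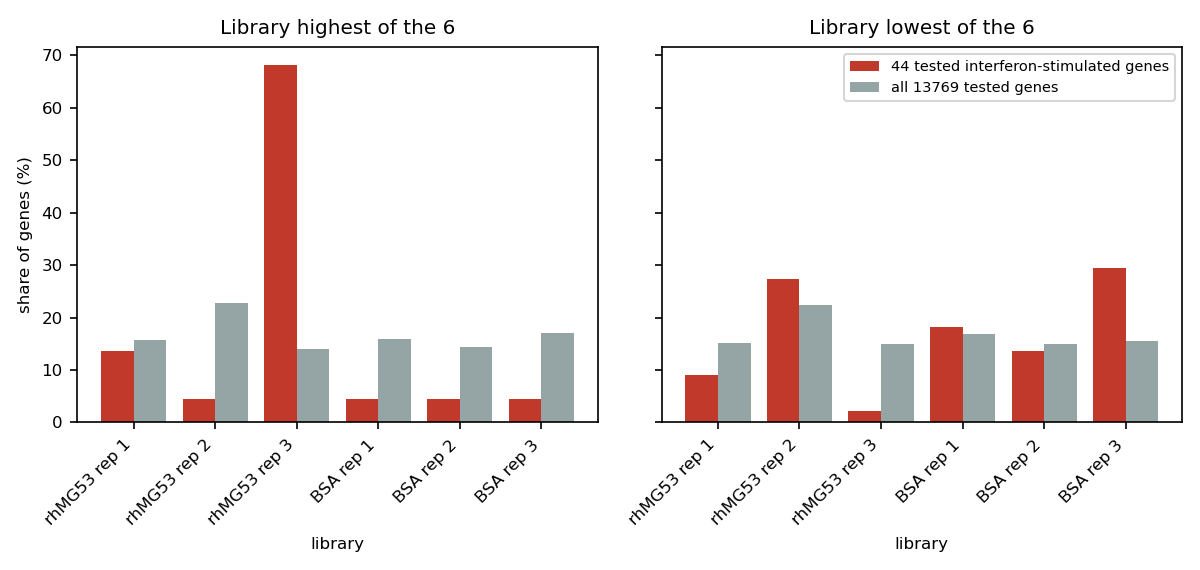
Share of genes (%) in which each library had the highest CPM of the 6 (left panel) or the lowest (right panel), for the 44 tested interferon-stimulated genes (red) and for all tested genes (grey). Replicate 3 of rhMG53 was the highest in 68.2% of the 44 genes and the lowest in 2.27%.

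Among the transcription factors of the pathway, Irf1 had the lowest p and the core signalling complex had values near 0. Irf1, a factor induced by interferon gamma, measured 10.6, 9.75 and 9.91 CPM with rhMG53, against 8.49, 7.12 and 9.73 CPM with BSA. The groups did not overlap, with rhMG53 replicate 2 only just above BSA replicate 3, and the log2 fold change was 0.25 (SE 0.126, edgeR adjusted p = 0.965), or 0.15 without BSA replicate 2. Stat2, the STAT protein that partners Irf9, was at 19.0, 14.7 and 17.4 CPM with rhMG53, against 16.5, 16.3 and 17.05 CPM with BSA, with rhMG53 replicate 2 the lowest of all. Its log2 fold change was 0.04 (95% interval -0.19 to 0.26), and that of Irf9 was -0.09 (-0.43 to 0.25). Irf7, which amplifies interferon production and was chosen after its values were seen, was at 2.32, 1.80 and 3.999 CPM with rhMG53 and 1.90, 2.99 and 1.32 CPM with BSA, so its positive log2 fold change of 0.38 rested on replicate 3. Nlrc5, the transactivator of MHC class I genes, had a log2 fold change of -0.02.

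Of the 5 tested nucleic acid sensors 4 were positive and 0 passed, and the median was 0.15 on the log2 scale. Ifih1, which encodes the double-stranded RNA sensor MDA5, was at 5.15, 3.60 and 4.41 CPM with rhMG53, against 3.32, 3.62 and 3.74 CPM with BSA. Replicates 1 and 3 of rhMG53 lay above the BSA libraries and replicate 2 within them. The log2 fold change was 0.31 (SE 0.168) at an adjusted p of 0.965, or 0.17 without rhMG53 replicate 1. Ddx58, the gene of RIG-I, spread over 8.79, 5.45 and 11.5 CPM with rhMG53, while BSA libraries lay between 8.35 and 8.81 CPM, so its value of -0.02 on the log2 scale (95% interval, -0.48 to 0.44) stood beside a wider spread among rhMG53 libraries than among BSA libraries. Dhx58, Ifi203 and Ifi204 had log2 fold changes of 0.15, 0.64 and 0.09, and Ifi204 shares 30.2% of its 50-base stretches with other genes. Zbp1, the sensor of Z-form nucleic acids, was below the filter, with 5, 7 and 17 counts in rhMG53 libraries and 4, 11 and 4 in BSA libraries.

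The antiviral effectors held the members with the smallest p. Cmpk2 (gene ID 22169, chromosome 12, 26469117 to 26479837 in mm10), a mitochondrial nucleotide kinase gene next to Rsad2, had 26, 15 and 23 counts in rhMG53 replicates 1 to 3 and 15, 10 and 10 in BSA replicates 1 to 3. These were 1.31, 0.817 and 1.33 CPM with rhMG53 and 0.663, 0.565 and 0.550 CPM with BSA. Cmpk2 reached the filter's cutoff in 3 rhMG53 but only 2 BSA libraries, so its entry to the test leaned on the group where it was high. The groups did not overlap, the log2 fold change was 0.94 (SE 0.302, interval 0.28 to 1.61) and the adjusted p was 0.935 in edgeR. Ifit1 (15957, chromosome 19, 34640889 to 34650009) was at 4.54, 2.34 and 5.16 CPM with rhMG53, against 2.52, 2.37 and 1.43 CPM with BSA. Replicate 2 lay within the BSA range, and the log2 fold change was 0.91 (SE 0.297, adjusted p = 0.935). Oasl2 (23962, chromosome 5, 114896926 to 114912245), an oligoadenylate synthetase-like gene, showed the largest value of the 44, at 1.13 on the log2 scale (SE 0.447, interval 0.14 to 2.11, adjusted p = 0.946). Its libraries held 36, 25 and 78 counts with rhMG53 and 16, 27 and 24 with BSA, so replicate 3 stood far above the rest, and without it the log2 fold change was 0.46.

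**Figure D5:**
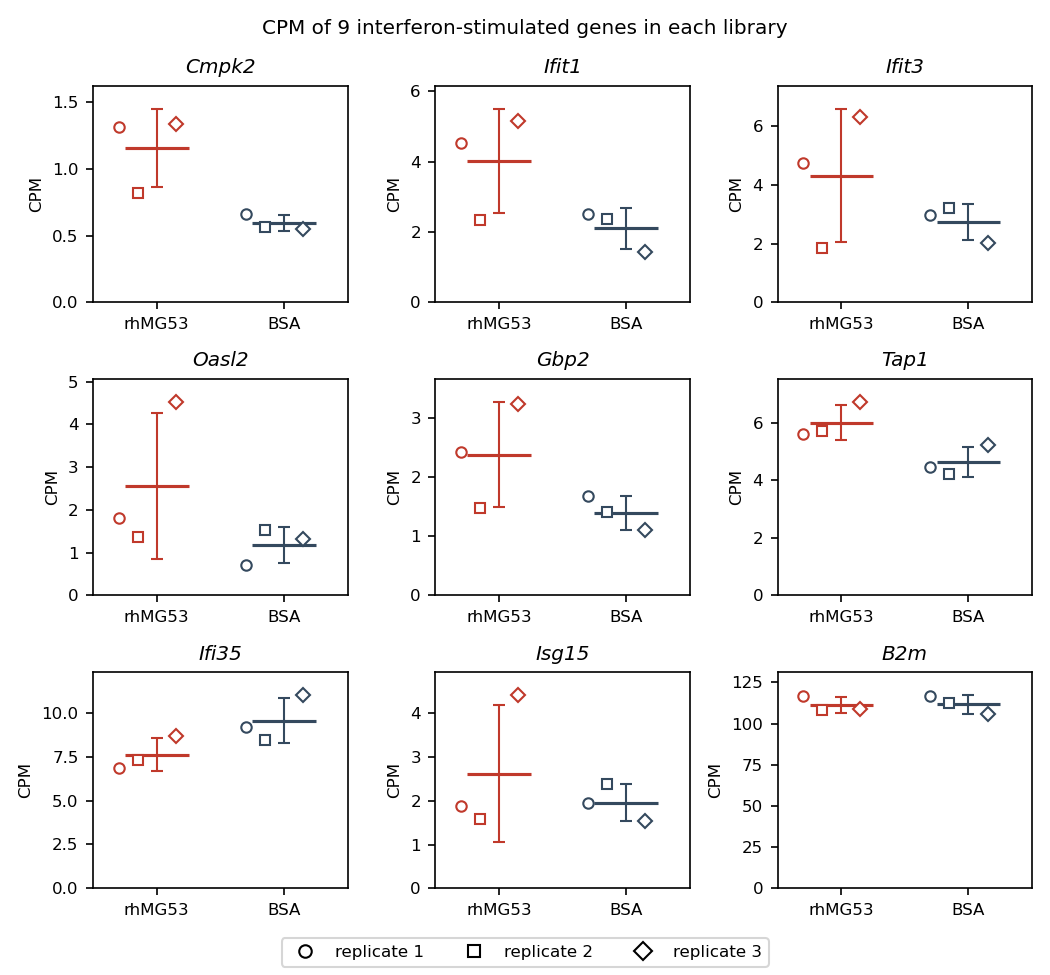
CPM of 9 interferon-stimulated genes in each library, with rhMG53 left of BSA; symbols are replicates, horizontal lines group means and bars 1 SD (3 libraries each). In Ifit1, Ifit3 and Gbp2 rhMG53 replicates 1 and 3 lie above the BSA libraries and replicate 2 does not, in Oasl2 and Isg15 replicate 3 stands far above the rest, and in B2m the groups lie together.

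The tandem copies Ifit3 and Ifit3b showed the same arrangement of libraries as Ifit1. Ifit3 was at 4.75, 1.85 and 6.32 CPM with rhMG53, against 2.96, 3.22 and 2.04 CPM with BSA (log2 fold change 0.64, SE 0.354). Ifit3b was at 2.37, 1.25 and 3.19 CPM with rhMG53, against 1.59, 1.41 and 1.10 CPM with BSA (0.71, SE 0.319). The copies share 51.2% of the 50-base stretches of the longest Ifit3 transcript, so reads may have been split or dropped between them. Their summed counts were 141, 57 and 164 with rhMG53 and 103, 82 and 57 with BSA, with replicates 1 and 3 again highest. Ifit2, the more abundant paralog on the same stretch of chromosome 19, was at 17.8, 13.6 and 16.5 CPM with rhMG53 and 14.4, 13.3 and 13.6 CPM with BSA (0.21, SE 0.108). Rsad2, the gene of the antiviral enzyme viperin, was at 2.17, 1.47 and 2.15 CPM with rhMG53, against 1.77, 1.30 and 1.16 CPM with BSA (0.43, SE 0.252). Samd9l, an interferon-inducible antiviral gene, was at 7.98, 4.80 and 8.75 CPM with rhMG53, against 6.45, 5.59 and 4.57 CPM with BSA (0.36, SE 0.213). In each of these 5 genes rhMG53 replicate 2 was within or below the BSA range. Without rhMG53 replicate 3 the log2 fold change was 0.27 in Ifit3, 0.40 in Ifit3b and 0.20 in Samd9l, and without rhMG53 replicate 2 it was 1.001 in Ifit3 and 0.58 in Samd9l. That of Ifit2 was 0.12 without rhMG53 replicate 1.

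The remaining effectors included both signs. Bst2 and Mx2 had log2 fold changes of 0.12 and 0.12, Eif2ak2, the gene of the RNA-activated kinase PKR that halts translation, had -0.11, and Oasl1 had -0.30 (interval -1.12 to 0.52). Of the 12 tested effectors, 10 were positive with a median of 0.40, and 0 passed. The 4 that were too low to test had few counts. Oas1a had 2, 1 and 5 counts with rhMG53 and 1, 0 and 0 with BSA. Oas2 had 2, 1 and 5 counts with rhMG53 and 2, 1 and 0 with BSA. The counts of Oas3 were 1, 2 and 4 with rhMG53 and 0, 2 and 0 with BSA, and those of Mx1 were 0, 0 and 2 with rhMG53 and 2 in each BSA library. Oas1a shares 57.6% of its 50-base stretches with Oas1g, which had 1, 0 and 7 counts with rhMG53 and 0 in the BSA libraries.

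The ISG15 system, in which Uba7 activates the modifier, Herc6 attaches it in the mouse and Usp18 removes it and restrains the receptor, was measured at 0.652 to 2.29 CPM. Isg15 was at 1.87, 1.58 and 4.41 CPM with rhMG53, against 1.95, 2.37 and 1.54 CPM with BSA. Replicate 3 was the only rhMG53 library above the BSA range, and the log2 fold change was 0.41 (interval -0.38 to 1.19). Usp18 was at 1.01, 0.381 and 1.04 CPM with rhMG53, against 0.530, 0.565 and 0.385 CPM with BSA (0.71, SE 0.405, adjusted p = 0.965), with replicates 1 and 3 high and replicate 2 just below the lowest BSA library. Uba7 and Herc6 had log2 fold changes of 0.15 and -0.05, and Herc6 shares 23.8% of its 50-base stretches with another annotated gene. The poly(ADP-ribose) polymerase genes and Dtx3l, the ubiquitin ligase partner of Parp9, were positive in 4 of 4 cases, with a median of 0.27. Parp9 was at 4.04, 2.62 and 4.64 CPM with rhMG53, against 2.96, 3.45 and 2.58 CPM with BSA (0.33, SE 0.219), with values of 0.16 without rhMG53 replicate 3 and 0.53 without rhMG53 replicate 2. Parp14, named after its values were seen, was at 3.13, 0.763 and 3.19 CPM with rhMG53, against 2.12, 1.86 and 1.16 CPM with BSA, so that replicate 2 was the lowest library and replicates 1 and 3 the highest. Dtx3l and Parp12 had log2 fold changes of 0.20 and 0.14. Exons of Parp9 and Dtx3l overlap on opposite strands over 458 bases.

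The interferon-inducible GTPases among the members, which attack the membranes around intracellular pathogens, were positive in 5 of 5 tested cases with a median log2 fold change of 0.48. Gbp2 (14469, chromosome 3, 142620663 to 142638008) was at 2.42, 1.47 and 3.25 CPM with rhMG53, against 1.68, 1.41 and 1.10 CPM with BSA (0.75, SE 0.296, adjusted p = 0.946), and its value was 0.47 without rhMG53 replicate 3. Gbp3 and Gbp7 had log2 fold changes of 0.53 and 0.48 at about 1 CPM. Irgm1, the most abundant of these members and a regulator of the others, was at 21.8, 20.8 and 28.3 CPM with rhMG53, against 20.7, 21.0 and 22.3 CPM with BSA (0.15, SE 0.111). Without rhMG53 replicate 3 its log2 fold change was -0.00380. Igtp was at 9.59 to 9.97 CPM with rhMG53 and 8.93 to 9.21 CPM with BSA, 1 of the 4 members whose groups did not overlap, with a log2 fold change of only 0.12. Iigp1 was below the filter and had 23, 2 and 21 counts in rhMG53 replicates 1 to 3 against 6, 3 and 3 in the BSA libraries. Replicates 1 and 3 thus held at least 21 counts and the other 4 libraries at most 6. All 5 tested GTPase members were highest in rhMG53 replicate 3. Tested GTPase genes outside the members, chosen after their values were seen, were mixed. Gbp4, Gbp8 and Gbp9 had log2 fold changes of -0.13, -0.18 and -0.10, and Gbp6 and Irgm2 had 0.00834 and 0.04. Ifi47, Tgtp1 and Tgtp2 had 0.17, 0.48 and 0.38. Of these genes outside the members, only Tgtp1 and Tgtp2 were highest in rhMG53 replicate 3.

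Of the 3 members of the MHC class I pathway only Tap1 had an interval clear of 0. Tap1 (21354, chromosome 17, 34187556 to 34197225), a subunit of the transporter that brings peptides into the endoplasmic reticulum, was at 5.60, 5.72 and 6.72 CPM with rhMG53, against 4.46, 4.24 and 5.22 CPM with BSA. The groups did not overlap, and rhMG53 replicate 2 stood as far above the BSA libraries as replicate 1. The log2 fold change was 0.37 (SE 0.143, interval 0.06 to 0.69, adjusted p = 0.946). Tap2, for the other subunit, is not a member and was chosen after its values were seen. It had the opposite sign (-0.14, SE 0.081), at 23.7, 27.1 and 25.5 CPM with rhMG53 and 26.0, 29.4 and 28.9 CPM with BSA. Tapbp was at 33.1, 37.3 and 37.0 CPM with rhMG53, against 33.2, 32.2 and 38.1 CPM with BSA (0.05, SE 0.082, and 0.00797 to 0.13 with single libraries left out), and 24.9% of its exon bases are overlapped by exons of a gene on the opposite strand. B2m, at 116.5, 108.3 and 108.9 CPM with rhMG53 and 116.7, 112.4 and 105.5 CPM with BSA, was within 0.14 of no change on the log2 scale by its 95% interval (-0.14 to 0.13). Its value was -0.00401, and the sign turned under library size scaling (0.0104). The high counts of B2m, 1879 to 2640 per library, left the narrowest interval of the set.

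The other members differed among themselves. Ifi35, which encodes a protein that partners Nmi (70110, chromosome 11, 101448412 to 101458701), was the member with the most negative log2 fold change, -0.33 (SE 0.136, interval -0.63 to -0.03, adjusted p = 0.946). It was at 6.87, 7.30 and 8.69 CPM with rhMG53, against 9.19, 8.48 and 11.0 CPM with BSA, and the groups overlapped through rhMG53 replicate 3 and BSA replicate 2. Exons of a gene on the opposite strand overlap 16.8% of its exon bases. Xaf1, a proapoptotic gene, was at 3.13, 3.65 and 4.58 CPM with rhMG53, against 2.34, 3.16 and 2.97 CPM with BSA (0.43, SE 0.196, or 0.27 without rhMG53 replicate 3). Tor3a was at 67.5, 65.9 and 72.9 CPM with rhMG53, against 61.2, 59.6 and 66.6 CPM with BSA (0.14, SE 0.068, adjusted p = 0.965). Ifi27 was at 17.9, 17.9 and 24.8 CPM with rhMG53, against 20.3, 20.5 and 22.9 CPM with BSA (-0.07, SE 0.123), so replicates 1 and 2 were below every BSA library and replicate 3 above. Lgals3bp, a secreted glycoprotein gene, had the same split, at 8.28, 6.27 and 13.2 CPM with rhMG53 and 9.94 to 10.3 CPM with BSA. Rtp4 had a log2 fold change of 0.11. Ifi44 was below the filter, with 4, 4 and 28 counts in rhMG53 libraries and 9, 6 and 7 in BSA libraries.

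Upstream of these genes, the interferon genes had almost no counts and their receptors were expressed. Of 21 interferon genes, 18 had 0 counts in every library, which allows up to 0.132 to 0.173 CPM in a library (3 counts, counting error only). This bound does not cover reads dropped for mapping to several genes, whose handling is not given. Ifnb1 and Ifna7 had 1 count each in all, and Ifnz had 9, 5 and 3 counts with rhMG53 and 1, 4 and 6 with BSA. Of 9 tested receptor and kinase genes 6 were positive and 3 negative, with a median log2 fold change of 0.06. Ifnar2 was at 12.6, 13.8 and 11.3 CPM with rhMG53 and 11.5, 9.32 and 11.2 CPM with BSA (0.23, SE 0.116), and Tyk2 at 26.7, 26.4 and 25.2 CPM with rhMG53 and 26.4, 27.6 and 31.9 CPM with BSA (-0.13, SE 0.084). Replicate 3 of rhMG53 was the highest library in neither, and without BSA replicate 2 the value of Ifnar2 was 0.15 and without BSA replicate 3 that of Tyk2 was -0.0492. Of 13 tested genes of the path that induces interferon 7 were positive (median 0.01), among them Ticam1, the adaptor of the RNA receptor TLR3, at 13.1, 12.3 and 13.5 CPM with rhMG53 and 10.7, 11.1 and 10.4 CPM with BSA. Its groups did not overlap and its log2 fold change was 0.27 (SE 0.092, adjusted p = 0.935), while that of Irf5, at 0.528 CPM over all libraries, was 0.66 (SE 0.326).

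Of 13 tested brakes of the pathway 6 were positive and the median was -0.03. Socs1, an inhibitor of the receptor kinases, was at 1.46, 1.42 and 1.57 CPM with rhMG53, against 0.442, 0.621 and 1.27 CPM with BSA. The 3 rhMG53 libraries lay close together and above all BSA libraries, and the log2 fold change was 0.96 (SE 0.343) at an adjusted p of 0.940. It was 1.49 without BSA replicate 3 and 0.64 without BSA replicate 1. The repressor Irf2 had 0.16 (SE 0.098). Of 40 further interferon-stimulated genes that were tested, 26 were positive and 14 negative, and their median of 0.03 was close to that of all genes. The 2 with the smallest p were Ciita, the transactivator of MHC class II genes, at 0.808, 1.04 and 1.22 CPM with rhMG53 and 1.68, 1.41 and 1.76 CPM with BSA (-0.67, SE 0.246, adjusted p = 0.940), and Psmb10, an immunoproteasome subunit, at 12.4, 14.8 and 14.6 CPM with rhMG53 and 12.4, 12.3 and 11.1 CPM with BSA (0.22, SE 0.103). Replicate 3 of rhMG53 was the highest library in 17 of these 40 (42.5%) and the lowest in 0, against 14.1% and 14.9% of all tested genes. None of the 75 tested pathway genes passed edgeR, DESeq2 or voom, and 3 had an unadjusted p under 0.05 in edgeR, 1 in DESeq2 and 3 in voom, against 5.2%, 2.67% and 5.16% of all tested genes in edgeR, DESeq2 and voom.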

How the data were processed

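For 6 libraries, the counts deposited by the authors are whole numbers, not normalised. Per the labels' protocols, libraries were directional after poly(A) selection, and per the submitters' processing notes STAR, featureCounts, edgeR and mm10 were used, with no versions. Not given in the sources used here are the strand setting, the annotation and the handling of multiply mapped reads. Members were matched by symbol through a RefSeq table of GRCm38.p6. Genes passing edgeR's filterByExpr (minimum count 10, minimum total 15) were scaled with TMM and tested 2-sided with edgeR's quasi-likelihood test (edgeR 4.0.16, R 4.3.3), with treatment as the only term, adjusting over 13769 genes. CPM use TMM-scaled library sizes. The SE is the log2 fold change over the square root of F. Exon lengths and shared 50-base stretches come from GENCODE M21. The fit was tested on simulated data.

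The members and lists were chosen with earlier results of these data known, so no test was made over a list. Named genes are the 16 members of lowest p, the lowest of each role, the 6 most abundant and the 2 lowest of each pathway list; other members given by library were named after their values were seen. Alternatives were other scaling factors, filters, DESeq2 1.42.0, limma voom (limma 3.58.1), robust moderation, the replicate number as a term, and leaving out each library. All pairs of replicate libraries differed by more than sampling noise.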

Additional observations from a re-analysis of the deposited data

How the results depend on the processing

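No member passed under any of the 15 alternatives run. The lowest adjusted p of a member was 0.155, in edgeR without rhMG53 replicate 2, for Iigp1, which was below the filter in the main fit. The count of all genes called higher, 3, was 6 with no filter on low counts, 5 with DESeq2, 0 with the replicate block and 0 to 4 when a library was left out (0 without BSA replicate 2). Genes called lower were 0 throughout. Members with a positive value numbered 34 of 44 and were 11 of 18 under a filter of 5 CPM on the mean. They were 31 to 43 when a library was left out. Their median log2 fold change was 0.07 at 5 CPM or more and 0.10 to 0.32 when a library was left out. In 26 of 30 named genes the sign held throughout. It turned in Irgm1 (-0.00380 without rhMG53 replicate 3, up to 0.23 without rhMG53 replicate 2), in Ifi27 (0.00613 without rhMG53 replicate 1, 0.00307 without rhMG53 replicate 2, down to -0.24 without rhMG53 replicate 3), in Stat2 (-0.0529 without rhMG53 replicate 1, up to 0.14 without rhMG53 replicate 2) and in B2m (0.0104 with library size alone, -0.0428 to 0.0312 when a library was left out). The cause was not tested. Same-numbered libraries correlated at 0.481, -0.263 and -0.307 in their deviations from the group means, and only replicate 1 of rhMG53 correlated best with its own number. Deviations from the mean of 3 libraries are tied together. They cannot tell whether libraries of the same number share an animal or culture. With the replicate block, 34 of 44 members were positive, with a median of 0.17. At under 5 CPM, a library gave few counts per gene, which limits what could be called.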
